A study of Mus musculus with 8 samples.

Results

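A set of 8 genes, several of them best known from other tissues, set apart the tumour cells of a relapsed and a primary mouse medulloblastoma. They are Ren1, Crabp1, Mgl2, Clic6, Pdlim3, Ak1, Abhd12b and Ret, 8 of the 27998 genes of the single-cell matrices and of the 20608 gene symbols of a bulk count table. All 8 were found in both. They were chosen by a measured value, the ratio of their summed unique molecular identifiers (UMIs, 1 per captured transcript) in granule lineage cells between the tumours. That ratio is therefore given as a description, with no test.

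All animals were Patched 1 deficient mice, in which the brake on Sonic hedgehog signalling is lost, and the labels give no strain, age, driver of the deletion or number of animals. The relapsed tumour, taken at 3 weeks, and the primary tumour gave 1 single-cell library each, so nothing between them has a replicate. One label of the relapsed library, its description, speaks of a primary tumour, and its title and source were followed here. Astrocytes sorted by flow cytometry after papain dissociation gave 3 bulk libraries of stroma B and 3 of stroma A, and no label ties stroma B or stroma A to relapsed or primary tumours. Nothing in the labels says that the 3 libraries of a stroma came from separate animals, so their p-values measure only the spread between these libraries.

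Medulloblastoma of this kind arises from granule neuron precursors of the cerebellum, which carry the transcription factor Atoh1, divide under hedgehog signalling and then differentiate. Renin, the product of Ren1, is an aspartyl protease that cleaves angiotensinogen and is best known from juxtaglomerular cells of the kidney. Crabp1 binds retinoic acid in the cytosol, Mgl2 is a galactose-binding C-type lectin of macrophages and dendritic cells, and Clic6 belongs to the chloride intracellular channel family. Pdlim3 is a PDZ and LIM domain protein that binds alpha-actinin in muscle. Ak1 is a cytosolic adenylate kinase, Abhd12b is an alpha/beta hydrolase of the ABHD family, and Ret is the receptor tyrosine kinase of the GDNF family ligands, which bind it together with a GFRalpha co-receptor.

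The proximal promoters of 6 of the 8 genes were matched by symbol in a RefSeq table (GRCm38.p6). The 4 shown here are those of the genes with the widest gap between the tumours in each direction and of 2 others high in the primary tumour. Each is the 250 bases before the RefSeq start, 5′ to 3′ on the plus strand, with matches to 8 searched motifs in capitals. The RefSeq starts of Ren1, Mgl2 and Pdlim3 lie downstream of the GENCODE gene starts given with the levels, so these windows reach into the annotated genes. The positions are chr1:133350424-133350673 for Ren1, chr9:54764498-54764747 for Crabp1, chr11:70130107-70130356 for Mgl2 and chr8:45885237-45885486 for Pdlim3.
Ren1: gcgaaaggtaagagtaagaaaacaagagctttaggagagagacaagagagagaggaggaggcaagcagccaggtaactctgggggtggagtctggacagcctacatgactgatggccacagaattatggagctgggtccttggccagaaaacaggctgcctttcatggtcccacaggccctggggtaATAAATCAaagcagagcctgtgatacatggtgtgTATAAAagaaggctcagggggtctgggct
Crabp1: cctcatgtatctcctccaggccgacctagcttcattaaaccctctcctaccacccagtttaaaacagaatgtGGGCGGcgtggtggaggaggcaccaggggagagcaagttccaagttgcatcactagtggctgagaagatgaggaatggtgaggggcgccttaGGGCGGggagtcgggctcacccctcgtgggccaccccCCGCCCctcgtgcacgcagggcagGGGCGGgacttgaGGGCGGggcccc
Mgl2: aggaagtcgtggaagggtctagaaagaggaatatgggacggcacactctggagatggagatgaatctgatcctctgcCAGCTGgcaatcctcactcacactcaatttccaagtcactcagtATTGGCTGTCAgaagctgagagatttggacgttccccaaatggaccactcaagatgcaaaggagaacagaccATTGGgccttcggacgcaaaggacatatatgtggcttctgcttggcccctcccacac
Pdlim3: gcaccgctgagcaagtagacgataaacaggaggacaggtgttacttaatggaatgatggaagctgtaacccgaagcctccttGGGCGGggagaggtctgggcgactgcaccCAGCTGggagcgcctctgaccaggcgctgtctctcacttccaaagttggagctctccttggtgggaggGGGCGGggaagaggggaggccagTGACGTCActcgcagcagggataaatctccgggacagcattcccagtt
The motifs, searched on both strands, were a Hox-Pbx site (TGATTNAT), a Meis site (TGACAG), the core promoter letters TATAAA, the CCAAT box, an E-box with the letters CAGCTG, a Gli site (GACCACCCA), a cyclic AMP response element (TGACGTCA) and a GC box (GGGCGG). The Ren1 window held the Hox-Pbx letters on the opposite strand, as ATAAATCA from 63 to 56 bases before the start, which 2.82% of 32851 promoter windows of this length also hold. It also held TATAAA from 29 to 24 bases before the start, and 12.4% of windows hold those letters. The Crabp1 window held 5 GC boxes and no other searched motif, and 32.7% of windows hold at least 1 GC box. The Mgl2 window held 2 CCAAT boxes, an E-box and Meis letters that directly follow the upstream CCAAT box. Of all windows, 33.8% hold a CCAAT box, 13% the E-box letters and 15.9% the Meis letters. The Pdlim3 window held the cyclic AMP element letters 48 to 41 bases before the start, shared by 1.55% of windows, beside 2 GC boxes and an E-box. None of these 4 windows held the Gli letters, which 0.225% of windows hold. A match is a description of the letters and not a bound site, and no match says only that the letters are not in the window.

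After filters, 7278 relapsed and 8548 primary cells were kept, of which 6835 and 7334 fell into clusters of the granule lineage. Their median depths were 6933 UMIs in the relapsed and 5624.5 in the primary tumour. The clusters were built without the 8 genes among the clustered genes, 4 of which would otherwise have been used, and nearly every granule cluster held cells of 1 library. Clusters were classed as precursor, cycling or differentiating by Atoh1 and hedgehog genes, mitotic genes and neuronal genes. Atoh1 itself stood at 239 CPM (UMIs of a gene scaled to the same total in each group of cells) in relapsed and 166 in primary granule cells, and Barhl1 644 and 482, so the lineage markers were present in both. The 2 libraries shared 93 cell barcodes.

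In the relapsed tumour 4 of the genes were lower and 4 higher than in the primary tumour, so neither tumour carries the whole set. Of 12655 genes with at least 50 UMIs in granule cells of both tumours together, 2.06% were at least 4-fold lower and 1.68% at least 4-fold higher in the relapsed tumour. All 8 genes reached 50 UMIs, and all 8 lay past 4-fold, which is what they were picked for. The median log2 ratio of all genes was -0.10.

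**Figure D1:**
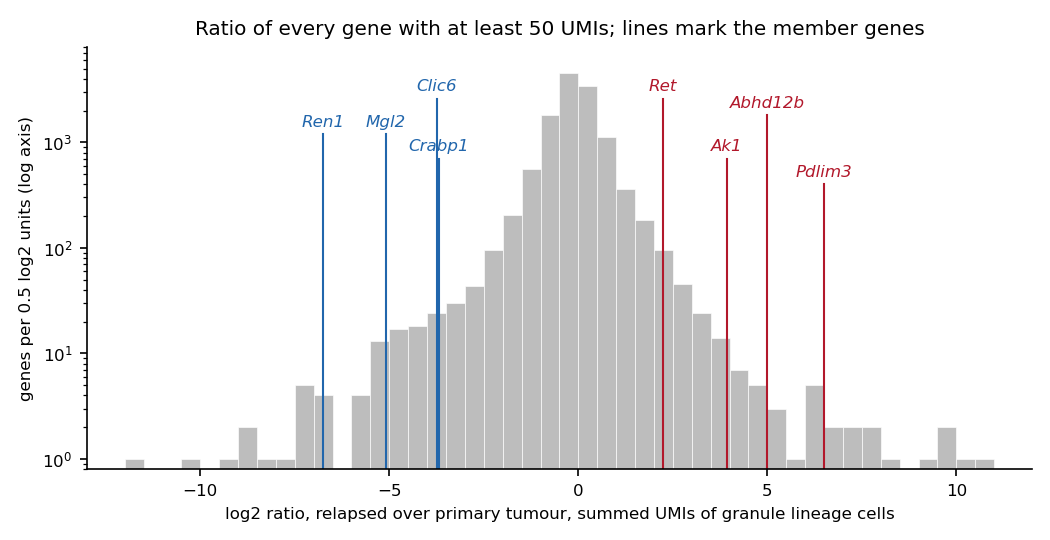
Log2 ratio of summed UMIs in granule lineage cells, relapsed over primary tumour, for 12655 genes in bins of 0.5 (x axis, counts of genes on a log axis). Lines mark the 8 genes, red where higher in the relapsed tumour and blue where lower: Ren1 at -6.76 and Pdlim3 at 6.51 are farthest out, and most genes lie between -1 and 1.

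Ren1 (chromosome 1, 133350510 to 133360325 on mm10) was the gene of the set with the widest gap. It stood at 2.18 CPM (95% Poisson interval 1.81 to 2.61) in relapsed granule cells, against 236 CPM in primary granule cells, from 120 and 10728 UMIs. The log2 ratio was -6.76 (-7.03 to -6.50), the 16th lowest of the 12655 genes. These and all further intervals cover counting error in 1 library only. Mgl2 (chromosome 11, 70130329 to 70137550) stood at 1.67 CPM (1.35 to 2.05) in relapsed and 57.1 CPM in primary cells, a log2 ratio of -5.09 (-5.41 to -4.79). Clic6 (chromosome 16, 92485736 to 92541243), which overlaps 2410124H12Rik on the same strand, had 2.02 CPM (1.66 to 2.43) in relapsed and 27.1 CPM in primary cells. Crabp1 (chromosome 9, 54764748 to 54773110) had 1.80 CPM (1.46 to 2.19) in relapsed and 23.2 CPM in primary cells. Their log2 ratios were -3.74 (-4.04 to -3.46) for Clic6 and -3.69 (-4.00 to -3.39) for Crabp1.

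The other 4 were high in the relapsed tumour. Pdlim3 (chromosome 8, 45885461 to 45919548) stood at 116 CPM (113 to 119) in relapsed granule cells, against 1.28 CPM in primary granule cells, from 6377 and 58 UMIs. Its log2 ratio was 6.51 (6.13 to 6.91), the 12th highest of all genes tested. Abhd12b (chromosome 12, 70154142 to 70183887) had 26.1 CPM (24.8 to 27.5) in relapsed and 0.814 CPM in primary cells, a 32.1-fold difference with a log2 interval of 4.53 to 5.51. Ak1 (chromosome 2, 32621758 to 32635058) had 54.0 CPM (52.1 to 56.0) in relapsed and 3.56 CPM in primary cells, a log2 ratio of 3.92 (3.69 to 4.16). Ret (chromosome 6, 118151745 to 118197718, minus strand) had the smallest gap, with 3.84 CPM (3.34 to 4.39) in relapsed and 0.814 CPM in primary cells. Its log2 ratio was 2.24 (1.73 to 2.78).

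Shares of cells with a UMI had the same direction once each cell was thinned to 2000 UMIs, which left out no cell. Ren1 was then found in 0.351% of relapsed and 12.01% of primary granule cells (1.70% and 17.4% unthinned), Mgl2 in 0.337% and 11.2% (1.30% and 28.0%), and Pdlim3 in 15.6% and 0.205% (39.9% and 0.668%). For Pdlim3 the microglia and macrophage-like cells, a type not known for it, gave 6.45% of 31 relapsed cells and 0 of 217 primary cells, at unthinned median depths of 11083 and 6184 UMIs. For Ren1 they gave 0 of 31 relapsed and 11.98% of 217 primary cells, and 5.07% of the primary ones after thinning, against 12.01% of primary granule cells.

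The low side was low but not empty for any of the 8. Relapsed granule cells held 120 UMIs of Ren1 in 116 cells, with at most 2 in a cell, and 92 of Mgl2. Hoxb2, Hoxb3, Hoxb4, Hoxa2 and Meis2, which were present in primary granule cells, had 0 UMIs in all 6835 relapsed ones, where a count of 0 allows up to 0.0546 CPM.

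Within each tumour the genes differed by state, as the plot by state shows. In the relapsed tumour Pdlim3 stood at 105 CPM in precursor, 147 in cycling and 13.7 in differentiating cells. The differentiating cells thus had a log2 ratio of -2.94 (-3.23 to -2.66) to the precursors. Ret ran the other way, with 0.978 CPM in precursor, 0.884 in cycling and 21.2 in differentiating cells, a log2 ratio of differentiating to precursor cells of 4.44 (3.67 to 5.31). The primary tumour had the same order for Ret at lower levels, 0.214, 0.400 and 2.80 CPM, with a log2 ratio of 3.71 (2.18 to 5.69). Ret was thus a gene of differentiating cells in both tumours, and 168 of its 211 relapsed UMIs came from them.

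Ak1 and Abhd12b varied less across the relapsed states. Ak1 had 76.9 CPM in precursor, 45.4 in cycling and 44.1 in differentiating cells. Abhd12b had 29.7, 21.2 and 38.7 CPM in the same order. In the primary tumour Ren1 stood at 264 CPM in precursor, 175 in cycling and 295 in differentiating cells, so all 3 states carried it. Mgl2 had 59.7, 41.7 and 80.9 CPM and Crabp1 18.9, 13.6 and 49.9 CPM in that order. Clic6 alone of these 4 was lowest in differentiating cells, with 33.1, 24.4 and 19.95 CPM.

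The gap between the tumours held in every state for 7 of the genes. Ren1, Mgl2, Clic6 and Crabp1 were at least 4-fold lower in relapsed precursor, cycling and differentiating cells, where 1.55%, 1.34% and 1.19% of genes were. Pdlim3, Ak1 and Abhd12b were at least 4-fold higher in all 3, where 1.19%, 1.47% and 1.01% were. Ret reached 50 UMIs in differentiating cells only, with a log2 ratio of 2.92 (2.32 to 3.57) there. In cycling cells the interval of its ratio, from -0.08 to 2.58, took in no difference.

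**Figure D2:**
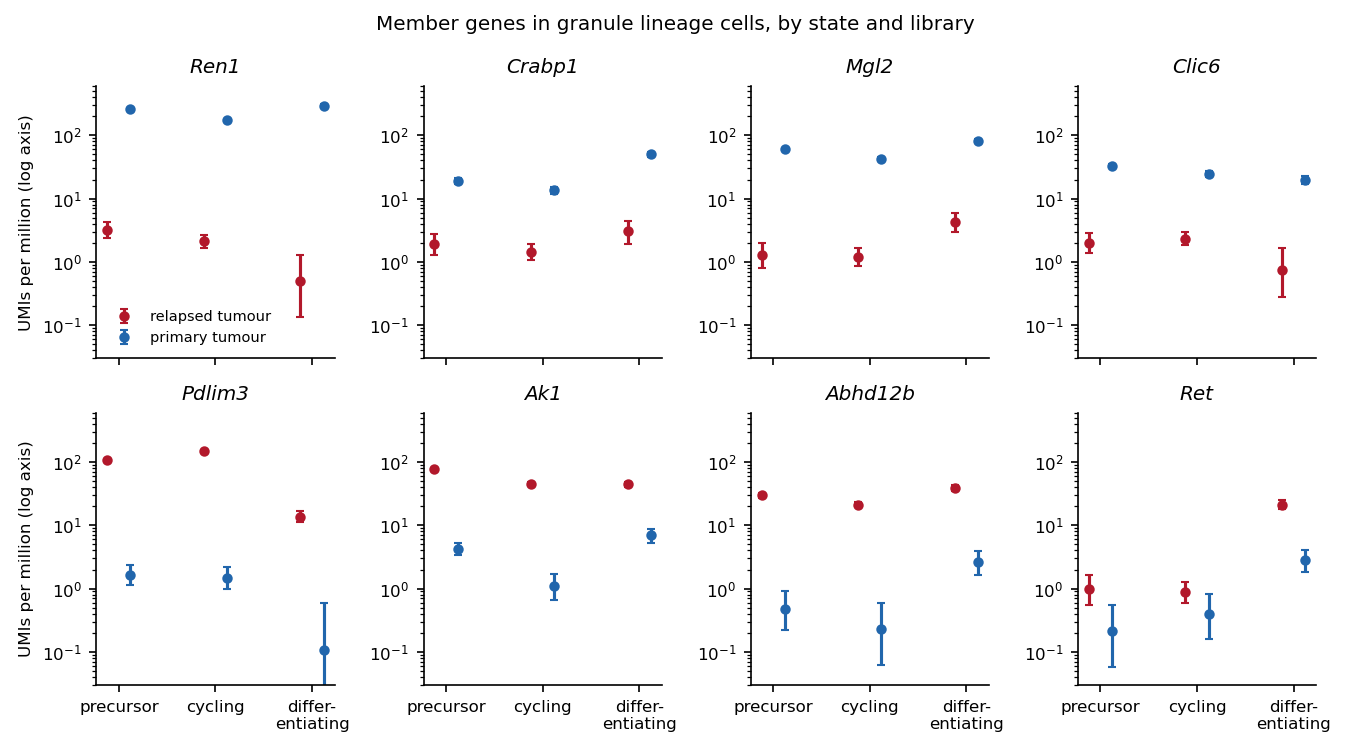
CPM (log axis) of each gene in precursor, cycling and differentiating granule cells, relapsed tumour in red left of primary tumour in blue, with 95% Poisson intervals. Ren1, Crabp1, Mgl2 and Clic6 lie lower in the relapsed tumour in each state, Pdlim3, Ak1 and Abhd12b higher, and Ret stands out in differentiating cells.

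Ren1 and Crabp1 were uneven inside the primary tumour, while Mgl2 varied less. Across its 8 granule clusters Ren1 ranged from 18.8 to 2254 CPM, Crabp1 from 4.14 to 350 CPM, Clic6 from 5.31 to 38.5 CPM and Mgl2 from 31.9 to 85.8 CPM. In each state 1 cluster had by far the highest Ren1. These were a precursor cluster of 680 cells at 1005 CPM, a cycling cluster of 339 cells at 682 CPM and a differentiating cluster of 208 cells at 2254 CPM. Together these 1227 cells, called the Ren1-high clusters, had Ren1 at 1039 CPM (1018 to 1060). The other 6107 primary granule cells had 36.1 CPM (34.2 to 38.1), and among them a cycling cluster of 492 cells stood between, at 188 CPM.

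The same clusters carried Crabp1 and hindbrain Hox genes, the transcription factors that pattern the rhombomeres. In Ren1-high clusters Crabp1 stood at 91.1 CPM, Hoxb2 at 167, Hoxb3 at 58.8 and Hoxa2 at 40.2, against 6.32, 5.77, 1.54 and 0.632 CPM in the other primary granule cells. Meis2, a cofactor of Hox proteins, had 80.2 CPM there and 1.07 elsewhere. Clic6 was lower in Ren1-high clusters, at 13.2 CPM against 30.5, and Mgl2 was near level, at 48.8 against 59.2 CPM. Since clusters were formed on these cells and picked for Ren1, these levels are a description. Atoh1 stood at 248 CPM in Ren1-high clusters and 146 in the other primary granule cells.

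Grouped by Ren1 UMIs per cell the pairing had the same form, but these groups largely repeat the clusters. Ren1-high clusters held 331 of the cells with at least 10 Ren1 UMIs, and the other primary granule clusters 33. For 3 to 9 UMIs they held 300 and 66, and for 0 UMIs 393 and 5667. Pairing within a cluster was not tested. Primary granule cells with at least 10 UMIs of Ren1, 364 in number, had Crabp1 at 204 CPM, those with 3 to 9 at 78.8, those with 1 to 2 at 17.0 and those with 0 at 4.71. Hoxb2 followed, with 199, 151, 67.5 and 13.8 CPM in the same order. Clic6 ran against it, with 11.9, 19.1, 19.98 and 29.6 CPM. Mgl2 stayed between 51.4 and 59.7 CPM in all 4 groups. Median depth was 7946.5 UMIs in cells with at least 10 Ren1 UMIs and 5471.5 in cells with none, and the part of depth in these orders was not tested.

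Ren1 came without the other genes listed for renin cells. Akr1b7, Gja5 and Foxd1, the 3 genes listed for juxtaglomerular and renin cells together, had 0 UMIs in the Ren1-high clusters. That allows up to 0.331 CPM each. Agt, which encodes the substrate of renin, had 5 UMIs and Ace, the converting enzyme, had 1. Of all Ren1 UMIs of these clusters, 670 of 9413 came from the 10 highest cells, with at most 94 in a cell, and 393 of the 1227 cells had none.

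**Figure D3:**
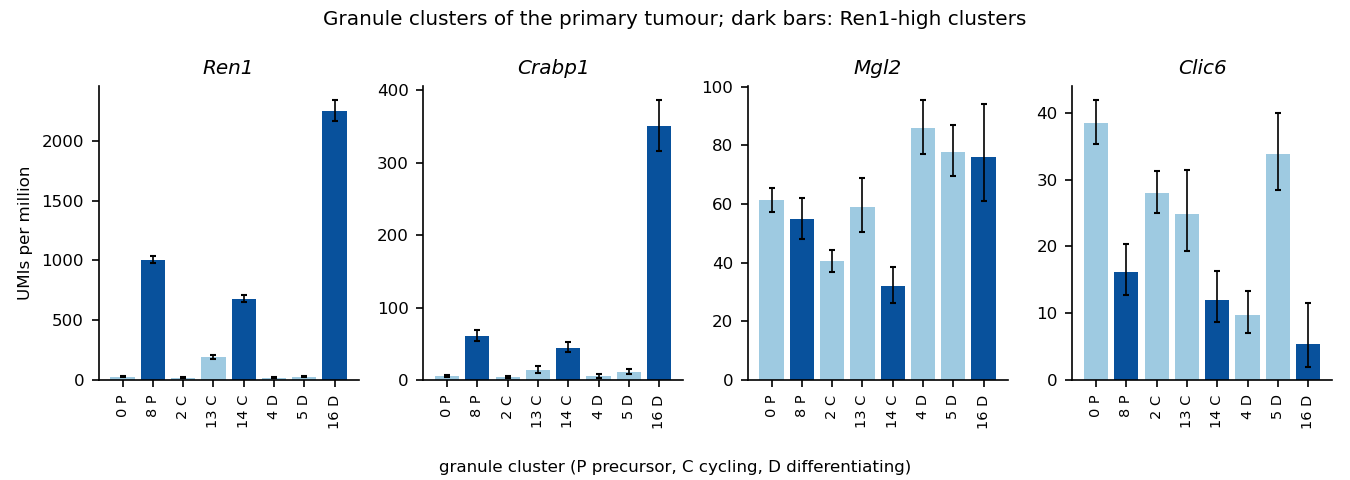
CPM of Ren1, Crabp1, Mgl2 and Clic6 in the 8 granule clusters of the primary tumour (x axis: cluster number and state), with 95% Poisson intervals and the Ren1-high clusters in dark blue. Ren1 and Crabp1 peak in the same 3 clusters, Mgl2 is present in all, and Clic6 is lowest of each state in those 3.

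Leaving out the Ren1-high clusters, a choice made after the data were seen, moved the ratios of Ren1 and Crabp1. The log2 ratio of Ren1 became -4.05 (-4.33 to -3.78). That of Crabp1 became -1.81 (-2.17 to -1.46), short of 4-fold. The other 6 ratios stayed within their counting intervals.

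The genes were also read in the cells that are not of the granule lineage, 300 in the relapsed and 590 in the primary library, to see which are general in a library. Mgl2 and Crabp1 had 0 UMIs in all 300 relapsed cells of other types, and Ren1 had 2. In the primary library these cells had Ren1 at 55.7 CPM, Mgl2 at 28.5 and Crabp1 at 13.4, against 236, 57.1 and 23.2 CPM in granule cells. Abhd12b had 5.87 CPM in the relapsed and 0 UMIs in the primary cells of other types.

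Pdlim3 and Ak1 were not restricted to granule cells. Astrocyte-like cells of the relapsed tumour, 67 in number, had Pdlim3 at 129 CPM (110 to 151) and Ak1 at 74.2, as high as granule cells of that library. Primary astrocyte-like cells, 135 in number, had Pdlim3 at 43.2 CPM and Ak1 at 44.4, where primary granule cells had 1.28 and 3.56. For these genes the primary granule cells were thus below astrocyte-like cells of their own library. They were not the only cells low in Pdlim3. Thinned to 2000 UMIs per cell, 217 primary microglia and macrophage-like cells had 0 UMIs of Pdlim3, which allows up to 6.91 CPM. Ak1 also stood at 33.2 CPM in 123 pituitary hormone-like cells of the relapsed library, at 17.8 in 208 primary oligodendrocyte precursor-like cells and at 22.1 in 217 primary microglia and macrophage-like cells.

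Abhd12b stood at 22.1 CPM in 33 relapsed oligodendrocyte precursor-like cells, from 9 UMIs, and at 8.25 CPM in relapsed astrocyte-like cells. Primary cells of both types had 0 UMIs, which allows up to 3.57 CPM and 3.70 CPM. Ret had between 1 and 5 UMIs in the astrocyte-like and oligodendrocyte precursor-like cells of each library, too few to compare.

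Mgl2, known from macrophages, was read in microglia and macrophage-like cells as well. Those of the relapsed tumour had 0 UMIs in 31 cells, which allows up to 8.16 CPM, and those of the primary tumour had 32.0 CPM from 58 UMIs, beside 57.1 CPM in primary granule cells. Thinned to 2000 UMIs per cell, the primary ones had 50.7 CPM (31.8 to 76.7), against 60.5 CPM in primary granule cells. That thinned level rests on 22 UMIs in 9 cells, with 14 UMIs in a single cell. Its counting interval leaves out the spread between cells and cannot show equal levels. After thinning, 4.15% (1.91 to 7.73) of the primary microglia and macrophage-like cells had a UMI of Mgl2, against 11.2% of primary granule cells. The same 217 primary cells had Ren1 at 84.3 CPM, but 135 of its 153 UMIs came from 10 cells and 71 from a single cell. Of the 58 Mgl2 UMIs, 29 came from a single cell as well, and 22 of the 217 cells had any.

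RNA of genes on the granule marker list was present in cells of other types. Whether it came from granule cells, and the part of granule RNA in these levels, was not tested. The 12 granule precursor markers summed to 2114 CPM in the astrocyte-like cluster, 1285 CPM in the primary oligodendrocyte precursor-like cluster, and 832 and 422 CPM in the 2 microglia and macrophage-like clusters. Granule precursor clusters had between 4530 and 5423 CPM. Atoh1 stood at 33.8 CPM in relapsed and 62.9 CPM in primary astrocyte-like cells, against 239 and 166 in granule cells. Scrublet marked no doublet in the primary library, where the 546 cells with the highest doublet scores were removed instead.

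**Figure D4:**
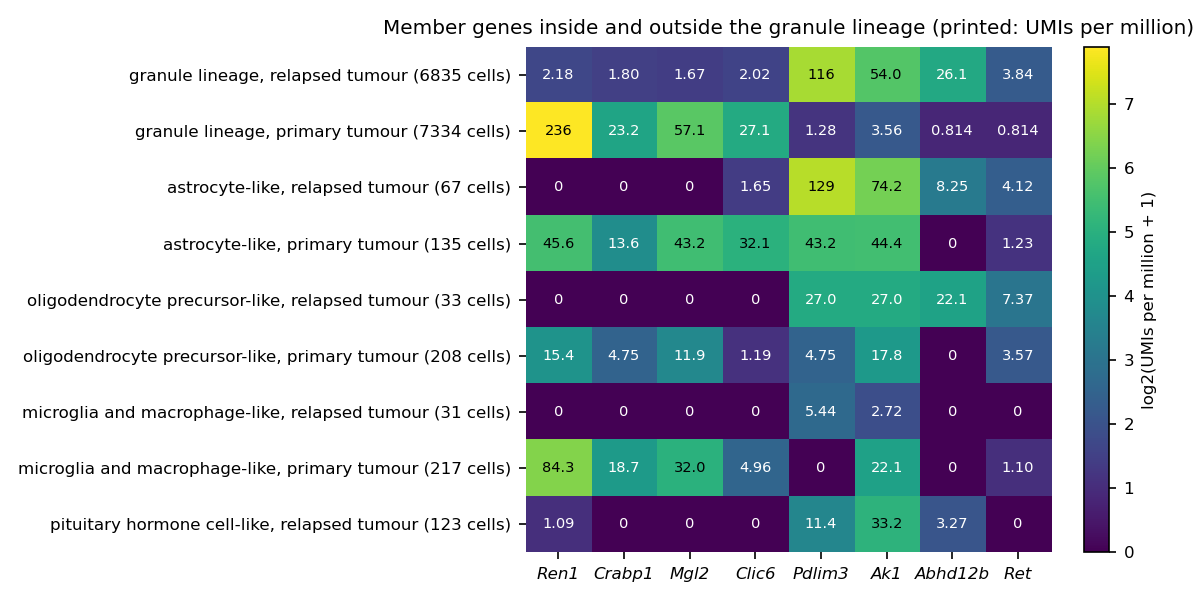
Levels of the 8 genes in granule lineage cells and in the larger groups of other cells, relapsed above primary, as CPM printed in each cell and coloured on a log2 scale. Pdlim3 and Ak1 are high in astrocyte-like cells of both tumours, and Ren1, Crabp1 and Mgl2 are 0 in relapsed astrocyte-like, oligodendrocyte precursor-like and microglia and macrophage-like cells.

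Relatives and partners of the 8 genes lay past 4-fold about as often as other genes. Of 82 other genes in 8 lists of relatives and partners, 81 were measured and 40 reached 50 UMIs in granule cells. None of the 40 was at least 4-fold higher in the relapsed tumour and 1 was at least 4-fold lower, beside 1.68% and 2.06% of all genes. Their median log2 ratio was -0.05, beside -0.10 for all genes. The 1 lower gene was Rarb, a retinoic acid receptor, at 0.983 CPM in relapsed and 4.97 CPM in primary cells, a log2 ratio of -2.34 (-2.80 to -1.91). Dhrs3, a retinaldehyde reductase, stood at 18.3 CPM in relapsed and 4.69 CPM in primary cells. Rbp4, which carries retinol in plasma, stood at 71.4 CPM in relapsed and 163 CPM in primary cells.

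Atp6ap2, the (pro)renin receptor, stood at 80.9 CPM in relapsed and 84.5 CPM in primary cells. Among the co-receptors of Ret, Gfra2 had 8.06 CPM in relapsed and 12.3 CPM in primary cells and Gfra4 14.3 and 9.44. Clec10a, a relative of Mgl2 and its neighbour on the chromosome, had 5.15 CPM in relapsed and 3.52 CPM in primary cells. Pdlim4 had 7.95 CPM in relapsed and 18.1 CPM in primary cells, against the direction of Pdlim3. Ak6 had 42.0 CPM in relapsed and 97.3 CPM in primary cells, against the direction of Ak1. Abhd12, the namesake of Abhd12b, had 45.6 and 36.4 CPM, and Clic1 had 195 and 307 CPM in the same order. Other named relatives had log2 ratios between -0.40 (Actn1) and 0.39 (Abhd4), with Agt at 0.33, Abhd6 at 0.23, Ak3 at 0.00, Clic4 at -0.07, Actn3 at -0.22, Lnpep at -0.26 and Ncam1 at -0.28.

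Genes next to the 8 on the chromosome mostly had ratios near those of other genes. Among 80 protein-coding neighbours, 5 on either side of each gene, 59 reached 50 UMIs. Of these, 5 were at least 2-fold higher and 2 at least 2-fold lower in the relapsed tumour, beside 5.97% and 8.10% of all genes. The neighbour of Ren1 past that limit, Etnk2, went against it, at 7.88 CPM in relapsed and 2.77 CPM in primary cells. The 2 neighbours of Ak1 past it went the same way: St6galnac6 had 19.7 CPM in relapsed and 9.44 CPM in primary cells, and Eng 0.819 and 0.286 CPM. The others were Slc16a13 (log2 ratio -1.08) beside Mgl2, 1700029J07Rik (-1.23) near Pdlim3, Chrna5 (1.73) near Crabp1 and Rasgef1a (1.06) near Ret.

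Across 11 groups of at least 50 cells, formed by library and cell class, 13765 genes were ranked by the correlation of their log2(CPM + 1) with each of the 8. Mgl2 and Crabp1 were each other's nearest gene (Pearson r = 0.978), and Ren1 came next for Crabp1 (0.936). Isca1 followed (0.935). For Mgl2 the next were Hoxb3 (0.95003) and Gm10036 (0.949). The nearest genes to Ren1 were Mndal (0.967), Hoxb3 (0.960) and Mrrf (0.956). Those nearest to Abhd12b were Arf5 (0.983), A930019D19Rik (0.981) and Gm10406 (0.960), and those nearest to Pdlim3 were Ginm1 (0.954), Art3 (0.935) and Gm16740 (0.927). Clic6 lay nearest to Tufm (0.958), Fitm1 (0.952) and Cebpg (0.942). Ret lay nearest to Gm11744 (0.923), Lonrf1 (0.911) and Gm1673 (0.903), and Ak1 to Vps37c (0.870), Rnf103 (0.851) and Pi4k2a (0.849). The 11 groups come from 2 libraries and share their depth, and the values are given as descriptions, with no test. The 8 genes were chosen for their ratio between these libraries. A high r among those high in the same tumour therefore follows in part from that choice. Inside the primary tumour Mgl2 and Crabp1 differed. Mgl2 had 48.8 CPM in Ren1-high clusters and 59.2 in the other granule cells, and Crabp1 had 91.1 and 6.32.

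The sorted astrocyte libraries are the only replicated samples. They held between 6718165 and 11798735 reads, and their RNA was mixed. The 10 astrocyte markers summed to between 2791 and 8224 CPM in stroma B and between 1308 and 2691 in stroma A. The 8 oligodendrocyte precursor markers summed to between 1945 and 10137 CPM in stroma B and between 10168 and 18769 in stroma A. None of the markers of these lists was at 0 in every library, and the oligodendrocyte precursor sum exceeded the astrocyte sum in stroma B replicate 3 and in all of stroma A. In bulk RNA, fewer cells of a type and less RNA per cell cannot be told apart.

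None of the 8 genes passed the edgeR quasi-likelihood test of stroma B against stroma A, which 0.388% of 14176 genes passed as higher and 0.275% as lower. Of the 8, 5 had enough reads to be tested, and 3 of these had an unadjusted p under 0.05, as did 21.8% of all genes. Without the read filter edgeR passed 1 of 7 as higher, beside 0.716% of all genes. DESeq2 passed 3 of 6 as higher and 1 as lower, beside 4.77% and 5.72% of all genes. For both members and all genes, limma on log2(FPKM + 1) and log2(FPKM + 0.1) passed 0.

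Pdlim3 came nearest. It had 27.8, 50.3 and 12.6 CPM in the stroma B libraries, against 5.59, 3.30 and 2.92 CPM in stroma A. The means were 30.2 ± 18.9 CPM in stroma B and 3.94 ± 1.44 CPM in stroma A (SD, n = 3 each). The groups did not overlap, as for 14.2% of genes in this direction. The 10 astrocyte markers summed to 5460, 8224 and 2791 CPM in the same stroma B libraries. In those of stroma A they summed to 2691, 1308 and 2146 CPM. The part of astrocyte RNA in the Pdlim3 levels was not tested. The log2 fold change of Pdlim3 was 2.94 (SE 0.57, edgeR adjusted p = 0.0678). Over 12 alternatives its adjusted p lay between 3.82e-05 and 0.381 and passed in 3, edgeR without a filter (0.0426), edgeR without stroma B replicate 3 (0.0122) and DESeq2 (3.82e-05).

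Ret ran the other way. It had 8.98, 15.9 and 15.2 CPM in the stroma B libraries, against 23.5, 49.4 and 70.7 CPM in the stroma A libraries, again with no overlap, as for 13.1% of genes in this direction. The means were 13.4 ± 3.80 CPM in stroma B and 47.9 ± 23.6 CPM in stroma A (SD, n = 3 each). Its log2 fold change was -1.84 (SE 0.44, edgeR adjusted p = 0.106), and its adjusted p over 12 alternatives lay between 0.00363 and 0.439 and passed in DESeq2 alone.

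Clic6 and Crabp1 were high in some stroma B libraries only, Crabp1 mainly in stroma B replicate 2. Clic6 had 28.9, 27.5 and 0.829 CPM in stroma B, against 1.597, 2.48 and 3.93 CPM in stroma A, so stroma B replicate 3 lay below all of stroma A. Its log2 fold change was 2.83 (SE 1.096, edgeR adjusted p = 0.2004), and without stroma B replicate 3 it was 3.42 with an edgeR adjusted p of 0.0122. The adjusted p over 12 alternatives lay between 0.0122 and 0.534. Crabp1 had too few reads in most libraries to be tested, with 30, 529 and 5 reads in stroma B and 2, 4 and 5 in stroma A. DESeq2, whose own filter on read level kept it, gave it 5.28 on the log2 scale (SE 1.236, DESeq2 adjusted p = 0.000891). For edgeR without a filter the value was 5.34 (edgeR adjusted p = 0.0999). Both values rest mainly on the 529 reads of stroma B replicate 2.

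The library with 529 reads of Crabp1, stroma B replicate 2, was also the one with 2453 reads of Hoxb3 and 534 of Hoxb2. The other 5 libraries had between 2 and 81 of Hoxb3 and between 1 and 75 of Hoxb2. Meis2 went against this, with 4 reads in stroma B replicate 2, its lowest, and between 78 and 723 in the others. Its highest count, 723, was in stroma B replicate 3. Granule markers were highest in the 2 libraries with most Clic6 and Crabp1. The 12 granule precursor markers summed to 6297, 4229 and 2566 CPM in stroma B and to 2513, 1627 and 1568 CPM in stroma A. Atoh1 had 119, 124 and 18.2 CPM in stroma B and 33.3, 6.74 and 2.58 CPM in stroma A, and the part of granule RNA in these levels was not tested.

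Ren1 had 0 reads in all 6 bulk libraries, stroma B replicate 2 with its Hox and Crabp1 reads included. A count of 0 allows between 0.266 and 0.413 CPM a library, provided that reads matching a similar gene as well were counted. The sources used here do not say whether they were. The bulk table also lists Ren2, a near-identical renin gene that some mouse strains carry, at 0 in all 6, and the single-cell matrices list Ren1 alone, so reads of both genes could not be told apart in the single cells. Abhd12b had 0, 0 and 1 reads in stroma B and 0, 9 and 1 in stroma A.

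Mgl2 and Ak1 did not pass the test, and their groups overlapped. Mgl2 had 12.2, 0.887 and 0 CPM in stroma B, against 0.342, 2.06 and 6.74 CPM in stroma A, which gave 0.50 on the log2 scale (SE 1.66, adjusted p = 0.881 in edgeR). The 12 microglia and macrophage markers summed to 125, 86.0 and 35.7 CPM in the same stroma B libraries and to 17.7, 658 and 2658 CPM in those of stroma A. The part of macrophage RNA in the Mgl2 levels was not tested. Ak1 had 16.2, 51.5 and 28.6 CPM in stroma B, against 29.3, 20.5 and 20.3 CPM in stroma A, which gave 0.46 on the log2 scale (SE 0.43, adjusted p = 0.555 in edgeR).

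Of the 82 relatives, 59 were tested in the bulk libraries and edgeR passed 0, beside 0.388% and 0.275% of all genes as higher and lower. At an unadjusted p under 0.05, 4 were higher and 11 lower in stroma B, beside 21.8% of all genes in either direction. Their median log2 fold change was -0.28, beside -0.03 for all genes. DESeq2 passed 2 of 74 as higher and 8 as lower, beside 4.77% and 5.72% of all genes. Without a filter edgeR passed 1 of 81, as lower, beside 0.421% of all genes, and limma passed 0.

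**Figure D5:**
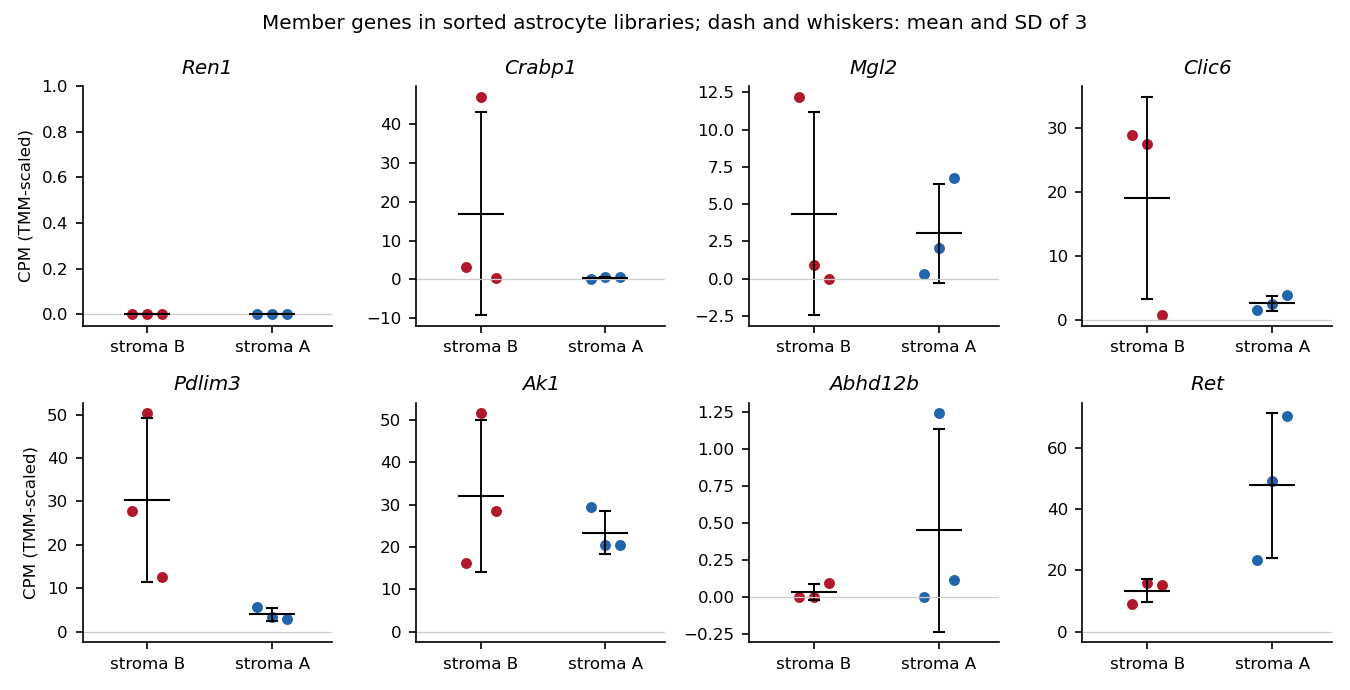
CPM of the 8 genes in the sorted astrocyte libraries, 3 of stroma B (red, left) and 3 of stroma A (blue, right), with the mean and SD of each group. Pdlim3 is higher in every stroma B library and Ret lower. Clic6 and Crabp1 are high in some stroma B libraries only, Crabp1 mainly in replicate 2, and Ren1 is at 0 in all 6.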

How the data were processed

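The data are 2 single-cell and 6 bulk libraries. Per the labels' protocols, the single-cell libraries are 10x Chromium ones, and their values were deposited as counts of UMIs. Bulk values were deposited as read counts per symbol and as FPKM. Per the submitters' processing notes, Seurat, STAR and Cell Ranger were used, on mm10. Their roles and versions, the bulk counter and its use of strand were not given in the sources used here. One bulk column, of stroma A replicate 2, was matched to its sample title on their shared start.

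Cells with at least 500 genes and at most 10% mitochondrial UMIs passed (7839 relapsed and 9094 primary). Scrublet in scanpy 1.11.5 at an expected 6% called 561 relapsed doublets, all left out, and 0 primary ones, where the 546 highest-scoring cells were left out. Both libraries were clustered together (2000 variable genes without the 8, 30 principal components, 15 neighbours, Leiden resolution 1, leidenalg 0.10.2). Clusters were named from listed markers by thresholds set after seeing the data: outside the granule lineage, at least 3 markers 4-fold up, at 20 CPM or more and in 20% of cells. Clusters under 0.65 of the median gene number stayed unnamed (143 relapsed and 624 primary cells with others). Summed UMIs have exact Poisson and ratios exact conditional binomial 95% intervals (scipy 1.17.1). A count of 0 is given with the level of 3 counts. Intervals and these levels cover counting error only.

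Bulk counts were filtered with filterByExpr, scaled by TMM and tested by glmQLFTest of edgeR 4.0.16 in R 4.3.3, the quasi-likelihood test, Benjamini-Hochberg adjusted over all genes at 0.05. The standard error is the log2 fold change over the square root of F. The test was also run on simulated data with 200 changed genes. That run does not show how the test behaves on mixed libraries such as these. Alternatives used DESeq2 1.42.0, limma 3.58.1 on log2(FPKM + 1) and log2(FPKM + 0.1), and other settings. The FPKM table has no Ren1 and no Abhd12b. Coordinates are from GENCODE on mm10, and promoters from RefSeq on GRCm38.p6.

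The 8 genes, the lists and the motifs were chosen with earlier results of these data known. Named relatives are, per list, up to 3 with the largest ratio in size among those with at least 50 UMIs, and named neighbours are those past 2-fold. One such relative is not reported here.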

Additional observations from a re-analysis of the deposited data

How the results depend on the processing

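No paired analysis was possible because stroma B and stroma A share only 1 number in their titles. The count of genes passing in edgeR, 94, lay between 0 and 1342 when 1 library was left out: it was 1342 without stroma B replicate 3 and 0 without any other library. It was 0 without both libraries of the shared number, 227 without a filter, 1728 in DESeq2 and 0 in limma on log2(FPKM + 1) or log2(FPKM + 0.1). In the settings with 0, between 1563 and 4353 genes had an unadjusted p under 0.05. The cause was not tested. With 1 library left out, the log2 fold change lay between 2.36 and 3.34 for Pdlim3, 2.43 and 3.42 for Clic6, -2.10 and -1.44 for Ret, -2.70 and 1.86 for Mgl2, and -0.05 and 0.80 for Ak1. Mgl2 was thus reversed without stroma B replicate 1 (-2.70), and also in limma on log2(FPKM + 0.1) (-0.067), and Ak1 without stroma B replicate 2 (-0.045). Calls were gained for Pdlim3 without a filter (log2 fold change 3.02) and for Pdlim3 (2.96), Clic6 (2.86) and Ret (-1.81) in DESeq2.

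The single-cell ratios had the same sign in all 51 recomputed values, and 44 stayed within the counting interval. Without the Ren1-high clusters Ren1 was at -4.05 and Crabp1 at -1.81. Thinned to 2000 UMIs per cell, Ak1 was at 3.61 and Crabp1 at -3.15. A gate on each cell, which kept only 23 relapsed and 273 primary cells, gave 5.06 (2.74 to 8.33) for Pdlim3, 2.06 (-1.41 to 4.86) for Ak1 and 1.48 (-4.24 to 5.11) for Abhd12b, the last 2 with intervals that take in no difference. It gave no ratio for the other 5 genes. In named cells outside the granule lineage, thinning gave 1.67 CPM for Ren1, 33.3 for Ak1, 11.7 for Abhd12b and 0 for Clic6 in the relapsed library, and 37.3 for Ren1, 39.8 for Mgl2 and 9.32 for Crabp1 in the primary library. Leiden resolution 0.5 gave 6.91 CPM for Pdlim3 there. At the thinned depth 1 UMI in a cell is 500 CPM, so low levels rest on few UMIs, and the smaller groups of other cells are limited in the same way.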
